A study of Homo sapiens with 6 samples.

Results

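The genes of 5 chemokines that interferon induces and that attract T cells, natural killer cells and monocytes are described here, in A549 cells that over-expressed the RNA-binding protein CELF6 (CELF6-OE) and in control cells. They were CXCL9, CXCL10, CXCL11, CCL5 and CX3CL1, chosen by name for this shared property, and they are 5 of the 29889 genes with at least 1 count. These genes and the lists below were chosen with earlier results of these data known. The shares of all genes set beside them are therefore a background and not a test. A549 is an established human lung adenocarcinoma line. In both groups it was transfected with a cationic lipid reagent, either with CELF6 in the plasmid pIRES-hrGFP-1a (CELF6-OE) or with the same plasmid left empty (Control), and polyadenylated RNA was collected after 48 h from 3 biological replicates per group. The expression is transient and plasmid-driven, the Control libraries held no CELF6 counts, and the share of cells that took up the plasmid is not given in the sources used here, so each library averages over transfected and untransfected cells. In such bulk samples, fewer cells that express a gene and less RNA per cell cannot be told apart. The series held no untransfected cells, so Control levels are those after transfection with the empty plasmid, and the resting level is not known. A lower resting level and a smaller response to transfection cannot be told apart either.

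Chemokines are small secreted proteins that guide leukocytes along a gradient to a site of infection or to a tumour. CXCL9, CXCL10 and CXCL11 share the receptor CXCR3 of activated T cells and natural killer cells. CCL5 (RANTES) binds receptors that include CCR1 and CCR3, and CX3CL1 (fractalkine) is made as a membrane-anchored adhesion molecule that binds CX3CR1 and is released by the proteases ADAM10 and ADAM17. Epithelial cells switch these genes on when interferons, double-stranded RNA sensors or TNF act through interferon regulatory factors and NF-kB. The mRNAs of several of them are short-lived.

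The CXCR3 ligands lie side by side on chromosome 4 (GRCh38, GENCODE v44, minus strand). CXCL9 (ENSG00000138755.5) spans chr4:76001275-76007509, CXCL10 (ENSG00000169245.5) spans chr4:76021118-76023497 and CXCL11 (ENSG00000169248.12) spans chr4:76033682-76041415. CCL5 (ENSG00000271503.5) is on the minus strand at chr17:35871491-35880793, and CX3CL1 (ENSG00000006210.6) is on the plus strand at chr16:57372477-57385044. The 250 bases before the RefSeq start of the CXCR3 ligands (GRCh38.p14, minus strand, 5′ to 3′) are shown, as the 3 neighbours of one family differ in level. Of the 5 genes, these 3 matched the RefSeq promoters used, and CCL5 and CX3CL1 did not. They cover chr4:76007510-76007759 for CXCL9, chr4:76023498-76023747 for CXCL10 and chr4:76036071-76036320 for CXCL11, the last of which lies inside the longer gene model of GENCODE. Capitals mark matches to the following elements. The core of the interferon-stimulated response element (ISRE, which reads GAAA, any 2 bases, GAAA) was searched on both strands. The core of the interferon-gamma activated sequence (GAS, which reads TTC, any 3 bases, GAA) reads the same on both strands. The NF-kB consensus was searched only on the strand shown, so matches on the other strand are not marked or counted.
CXCL9: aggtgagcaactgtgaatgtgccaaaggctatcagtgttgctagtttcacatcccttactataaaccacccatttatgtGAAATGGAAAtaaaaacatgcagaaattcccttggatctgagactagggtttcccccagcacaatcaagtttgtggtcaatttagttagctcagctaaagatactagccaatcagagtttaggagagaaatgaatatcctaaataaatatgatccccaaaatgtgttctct
CXCL10: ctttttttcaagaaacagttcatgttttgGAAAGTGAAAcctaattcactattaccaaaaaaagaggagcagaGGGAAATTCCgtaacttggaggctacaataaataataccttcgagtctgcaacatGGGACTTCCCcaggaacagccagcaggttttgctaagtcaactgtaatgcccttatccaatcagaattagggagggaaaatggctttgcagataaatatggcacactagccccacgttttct
CXCL11: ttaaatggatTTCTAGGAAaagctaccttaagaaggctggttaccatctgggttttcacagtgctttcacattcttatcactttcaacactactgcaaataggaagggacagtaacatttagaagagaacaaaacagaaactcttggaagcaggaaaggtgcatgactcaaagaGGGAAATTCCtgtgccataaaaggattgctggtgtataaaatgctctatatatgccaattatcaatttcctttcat
The CXCL9 stretch held 1 ISRE core, GAAATGGAAA, 171 to 162 bases before the start. The CXCL10 stretch held 1 ISRE core, GAAAGTGAAA, 221 to 212 bases before the start, and 2 NF-kB matches, GGGAAATTCC at 177 to 168 and GGGACTTCCC at 122 to 113 bases. The CXCL11 stretch held 1 GAS core, TTCTAGGAA, at 240 to 232 bases, and 1 NF-kB match, GGGAAATTCC, at 76 to 67 bases. Thus CXCL10 and CXCL11 carried the same NF-kB letters at different distances. Among 35116 RefSeq promoters of the same length, 3.02% held an ISRE core, 6.57% a GAS core and 7.46% an NF-kB match on the gene's strand. These are matches of letters and not binding sites measured in these cells.

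Gene counts summed to between 33748328 and 35413404 per CELF6-OE library and to between 36422617 and 37920700 per Control library, and mitochondrial genes took 8.69% to 10.1% of it. CELF6 had 18646, 20789 and 11571 counts in CELF6-OE replicates 1 to 3 and 0 in each Control library. The epithelial keratin genes KRT7, KRT8 and KRT18 were among the high A549 markers, at a mean of 1674 to 2530 FPKM (counts scaled by transcript length and library depth) in either group. Of 10 A549 and lung epithelial markers, 9 were not called, 1 was called down-regulated and 0 up-regulated. Of all genes tested, 4.06% were called down-regulated and 1.08% up-regulated. The log2 fold change was below 0 for 9 of the 10, with a median of -0.26, beside 0.0037 for all genes with a mean of at least 10 counts. The called marker was CDH1 (E-cadherin), with a log2 fold change of -1.63. Defining leukocyte markers were near 0. Of 15 leukocyte markers 11 had a row, PTPRC (CD45) had 2, 0 and 0 counts in the Control libraries against 0 in each CELF6-OE library, and the summed counts of the list were 322 to 401 per CELF6-OE library against 363 to 418 per Control library, most of them from CD14. The T cell genes CD3G and CD8A had at most 1 count and 22 to 30 counts per library. ITGAM was the only called marker of the 11, with a log2 fold change of -0.73, beside the same shares of all genes. The part of such cells in the results was not tested.

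Over-expression of CELF6 was accompanied by much less mRNA of CXCL10, CXCL11, CCL5 and CX3CL1. CCL5 and CXCL11 were each 14.0-fold lower, CXCL10 was 10.9-fold lower and CX3CL1 was 6.87-fold lower. CXCL9 was at the detection limit in both groups. A gene was called when edgeR's quasi-likelihood test gave p under 0.01 and it changed at least 1.5-fold, and 4 of the 5 genes were called down-regulated and 0 up-regulated. By the same rule 4.06% of all genes tested were down-regulated and 1.08% up-regulated. With an adjusted p under 0.05 among the genes kept by the low-count filter filterByExpr, the 4 genes were called again, beside 5.82% of genes down-regulated and 1.35% up-regulated. The same 4 genes had every CELF6-OE library below every Control library in CPM (counts scaled to a common library size), which held for 12.7% of all genes.

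**Figure D1:**
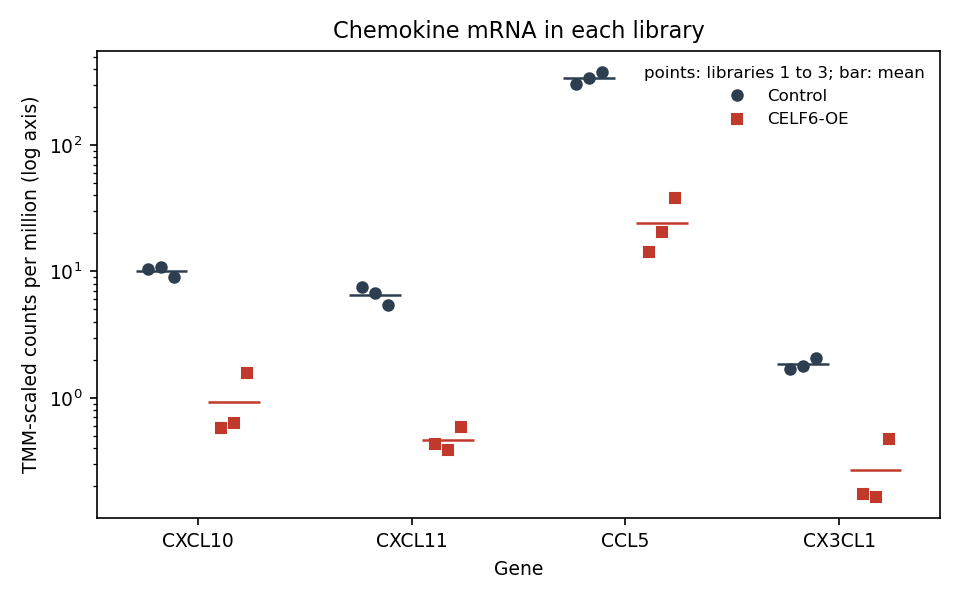
CPM (scaled with edgeR's TMM method) of 4 chemokine genes (log axis) in the 3 Control libraries (dark circles) and the 3 CELF6-OE libraries (red squares), with a bar at each group mean. CXCL9 is not drawn because it had 0 to 3 counts per library. For each gene all CELF6-OE points sit below all Control points, and the third CELF6-OE library is the highest of its group.

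CXCL10 (IP-10), the CXCR3 ligand that interferons of each type induce, had 384, 406 and 328 counts in Control replicates 1 to 3, against 20, 23 and 54 in the CELF6-OE replicates. The groups did not overlap, and the CELF6-OE library with the most CXCL10 still held far fewer reads than the Control library with the fewest. Its level per transcript length was 8.15 ± 0.938 FPKM (SD, n = 3) in Control and 0.767 ± 0.463 FPKM in CELF6-OE. The log2 fold change was -3.45 with a standard error of 0.17, or 0.26 in the test of the genes that pass filterByExpr, which uses the spread of each single gene. Here and below, standard errors were worked back from the fold change and the F statistic of the test, so they are approximate. There edgeR gave a Benjamini-Hochberg adjusted p of 1.7e-05.

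CXCL11 (I-TAC), the CXCR3 ligand with the highest affinity, had 276, 251 and 198 counts in Control against 15, 14 and 20 in CELF6-OE. All CELF6-OE libraries were low and close to one another. The mean level was 3.26 ± 0.599 FPKM in Control and 0.24 ± 0.0529 FPKM in CELF6-OE (SD, n = 3 each). The log2 fold change was -3.81 with a standard error of 0.21, and edgeR gave a Benjamini-Hochberg adjusted p of 2.6e-06. CXCL11 thus fell to a similar degree as its neighbour CXCL10, and within libraries the log2 ratio of CXCL10 to CXCL11 overlapped between the groups.

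CXCL9 (MIG), the third ligand of CXCR3 and the one tied most closely to interferon-gamma, had 2, 2 and 3 counts in Control against 0, 0 and 2 in CELF6-OE. No library exceeded 3 counts, the limit that a count of 0 allows, so a difference was not detectable at this depth and no fold is given. With edgeR's quasi-likelihood test its unadjusted p was 0.22. Control cells that held many CXCL10 and CXCL11 reads therefore held almost none of the gene next to them.

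CCL5, an attractant of T cells, eosinophils and monocytes, was by far the most abundant of the 5 mRNAs. It had 11221, 12683 and 13791 counts in Control against 499, 748 and 1305 in CELF6-OE. The Control libraries were tightly grouped, whereas the CELF6-OE libraries were widely spread and did not reach them. The level was 225.5 ± 18.7 FPKM in Control and 16.5 ± 8.38 FPKM in CELF6-OE (SD, n = 3 each), and the log2 fold change was -3.81 with a standard error of 0.083. In the filterByExpr test the standard error was 0.27 and the Benjamini-Hochberg adjusted p from edgeR was 1.2e-05. By mean FPKM CCL5 ranked 270 among 16948 protein-coding genes in Control and 3175 in CELF6-OE.

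CX3CL1 had 62, 67 and 75 counts in Control against 6, 6 and 16 in CELF6-OE. It was a scarce mRNA in both groups, and the groups did not overlap. Its level was 0.29 ± 0.0265 FPKM in Control and 0.0467 ± 0.0289 FPKM in CELF6-OE (SD, n = 3 each). The log2 fold change was -2.78 with a standard error of 0.29, or 0.33 with the spread of the single gene, and edgeR gave a Benjamini-Hochberg adjusted p of 0.000203. This was the smallest change among the 4 down-regulated chemokines.

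By mean FPKM the order was CCL5, CXCL10, CXCL11, CX3CL1 and CXCL9 in both groups, and within a group the libraries of neighbouring genes in this order did not overlap. CXCL10 moved from rank 4865 to 10609 among protein-coding genes, CXCL11 from 7402 to 12124 and CX3CL1 from 12015 to 13736. Summed over the 5 genes, the level was 219.86, 237.39 and 254.55 FPKM in Control and 10.33, 14.87 and 27.54 FPKM in CELF6-OE. These sums did not overlap (p = 0.1 in a two-sided exact permutation test, which is the lowest value 3 against 3 libraries can give). CCL5 made up 94.2%, 94.8% and 96.1% of the sum in Control and 93.0%, 94.9% and 93.8% in CELF6-OE. These shares overlapped, with a difference of -1.10 percentage points (two-sided exact permutation test, p = 0.3) that was -0.58 without Control replicate 3 and -0.65 without CELF6-OE replicate 1. A share this high can move little whatever the other 4 genes do.

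To compare the size of the decrease between genes, the log2 ratio of each of 6 gene pairs was taken within each library. The ratio of CCL5 to CX3CL1 was 7.49, 7.55 and 7.51 in Control and 6.26, 6.85 and 6.31 in CELF6-OE, a difference of -1.05. Relative to CX3CL1, CXCL11 differed by -0.90 and CXCL10 by -0.70 between the groups. None of these 3 ratios overlapped, and each had p = 0.1 in the two-sided exact permutation test, the smallest possible, or 0.2 after Benjamini-Hochberg adjustment over the 6 pairs. The ratios among CXCL10, CXCL11 and CCL5 differed by 0.14 to 0.35 and overlapped between the groups (exact permutation p of 0.3 to 0.8), and the direction of 2 of them turned when single libraries were left out.

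The CELF6-OE libraries were not alike. Relative to the Control mean in CPM, CCL5 stood at 4.18%, 6.03% and 11.2% in CELF6-OE replicates 1 to 3. CXCL10 stood at 5.66%, 6.26% and 15.6%, and CX3CL1 at 9.29%, 8.93% and 25.3%. CXCL11 was more even, at 6.54%, 5.87% and 8.92%. Replicate 3 was thus the highest for all 4 genes, and it was also the library with the least CELF6, at 338 CPM against 533 and 572 CPM in replicates 1 and 2. With 3 libraries no relation between the levels was computed, and the part of the CELF6 level in this spread was not tested. Without CELF6-OE replicate 3 the log2 fold changes were -4.29 for CCL5, -4.06 for CXCL10, -4.00 for CXCL11 and -3.43 for CX3CL1.

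**Figure D2:**
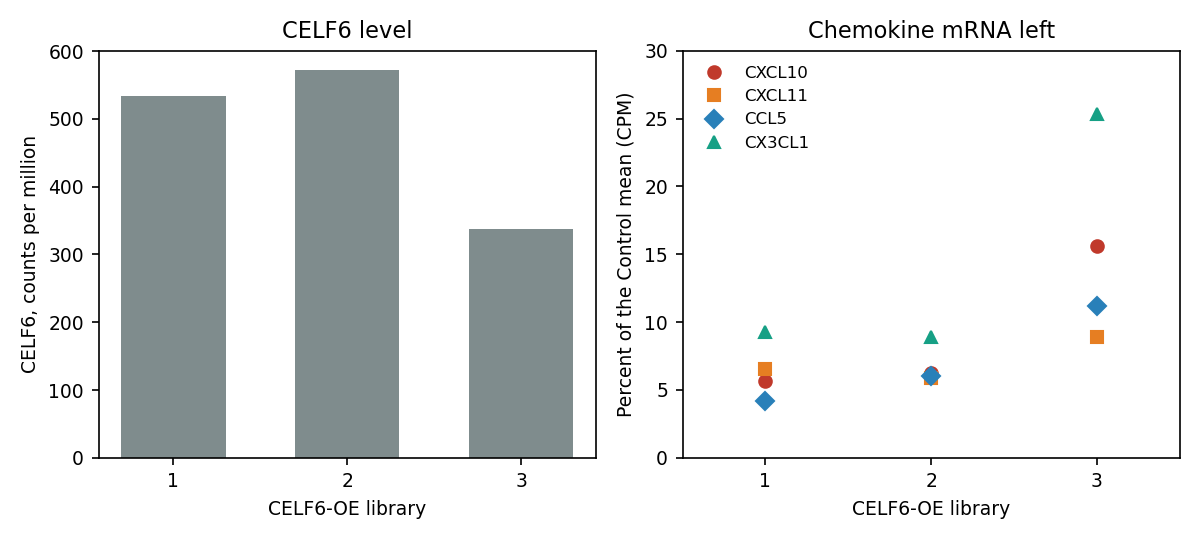
Left, CELF6 CPM in each CELF6-OE library (bars, 1 library each). Right, the chemokine mRNA in the same libraries as percent of the Control mean, which shows values of 4.18% to 9.29% in replicates 1 and 2 and of 8.92% to 25.3% in replicate 3.

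For CCL5 the coefficient of variation was 50.8% in CELF6-OE and 10.9% in Control, whereas counting error alone gives 3.43% and 0.892%. For CXCL10 it was 60.8% and 9.51%, with 17.6% and 5.18% from counting. For CXCL11 it was 22.5% in CELF6-OE, where counting gives 24.7%, and 15.8% in Control. CX3CL1 varied by 64.5% in CELF6-OE, where counting gives 32.7%, and by 10.6% in Control. For all 4 genes the coefficient was larger in CELF6-OE, where the mean was lower, and the difference in spread was not tested.

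The rest of the chemokine family did not move as one block. Of 43 other ligand genes 32 had a row in the table. Of these, 10 were down-regulated and 0 up-regulated, beside 4.06% and 1.08% of all genes, and filterByExpr left 6 of the 10. The 14 ligands with a mean of at least 10 counts had a median log2 fold change of -0.26, beside 0.0037 for the 15762 genes of all kinds at that level. Among the called ligands were attractants of T cells, and a split of the family by target cell was not tested. CCL3, a ligand of CCR1 like CCL5, went from 4.18 ± 0.93 to 0.44 ± 0.104 FPKM, a log2 fold change of -3.28. CCL17, a ligand of CCR4 on T cells, had 95, 99 and 72 counts in Control against 5, 3 and 6 in CELF6-OE, for a log2 fold change of -4.14. CCL20, the ligand of CCR6, had a log2 fold change of -1.57. CXCL16, the other membrane-anchored chemokine besides CX3CL1, had -0.79.

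CCL22, the second CCR4 ligand, had 7, 10 and 10 counts in Control against 2, 0 and 0 in CELF6-OE. CCL4 had 17, 13 and 6 counts in Control against 1, 3 and 2 in CELF6-OE, CCL4L2 had 19, 9 and 13 against 0, 0 and 2, and CCL3L3 had 55, 25 and 39 against 1, 7 and 6, and all 3 were called. CCL3 with CCL3L3 and CCL4 with CCL4L2 are near-identical copies, and since only reads with a single genomic location were counted, reads that match both copies are missing and the levels of these 4 genes are uncertain. The 4 most abundant ligands that were not called act through CXCR2 or CCR2 on neutrophils or monocytes. CXCL1 was at 79.9 ± 3.65 FPKM in Control and 86.9 ± 6.74 FPKM in CELF6-OE, with a log2 fold change of 0.09. CXCL5, CXCL2 and CCL2 had log2 fold changes of -0.28, -0.07 and 0.26. In the window before the start, 6 of the 24 other ligands with a RefSeq promoter held an NF-kB match on the gene's strand. They were CXCL1, CXCL2, CXCL3, CXCL5, CXCL6 and CCL22, and 0 of the 24 held an ISRE core. Among the 35116 RefSeq promoters, 7.46% held such an NF-kB match and 3.02% an ISRE core. For the ISRE core, 0 of 24 lies near that share.

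**Figure D3:**
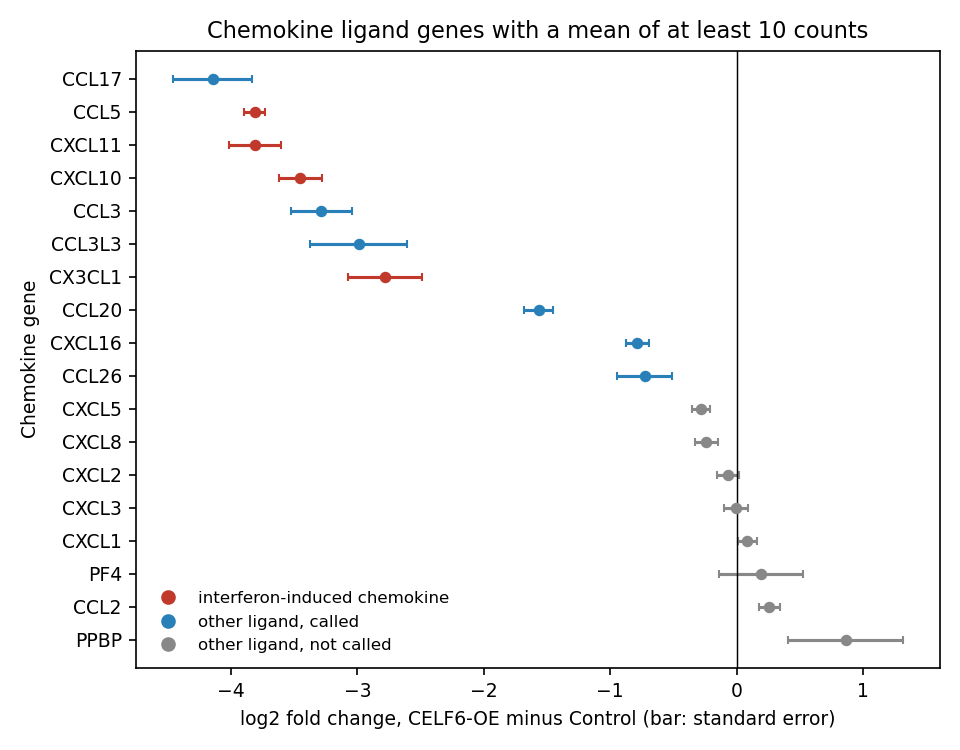
Log2 fold change of CELF6-OE against Control (point) with its standard error (bar) for the 18 chemokine ligand genes with a mean of at least 10 counts. Red marks the interferon-induced chemokines described here, blue other ligands called and grey those not called. The bars are approximate and were worked back from the test over all genes, which does not use the spread of each single gene. The red points lie between -3.81 and -2.78, and the CXCR2 ligands CXCL1, CXCL2, CXCL3, CXCL5 and CXCL8 lie near 0.

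The nearest expressed genes were examined to see whether the difference was shared along the chromosome. Beside the CXCR3 ligands, SDAD1 at 10.3 kb had a log2 fold change of 0.11, NAAA at 60.3 kb of -0.01 and NUP54 at 66.1 kb of 0.31, and none was called. SCARB2, a lysosomal membrane protein gene at 117 kb, was called at -0.85. Next to CCL5, TAF15 at 6.88 kb had 0.08 and RDM1 at 37.3 kb had -0.42, neither called, whereas MMP28 at 75.8 kb was called at -0.86 and CCL3 at 207 kb at -3.28. The CCL15-CCL14 readthrough gene between them was called on 0 to 10 counts per library, and CCL15 and CCL14 had no row of their own. The call of the readthrough gene was lost with DESeq2 (-3.09), with the replicate block (-2.83) and without CELF6-OE replicate 1 (-2.38), CELF6-OE replicate 2 (-3.21) or Control replicate 1 (-2.32).

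The CX3CL1 locus differed from the others in that its closest neighbours on both sides were chemokines. CCL22 lay 6.29 kb before it and CCL17 19.7 kb after it, and both were called, as given above. The genes beyond them were not called, with log2 fold changes of -0.39 for PLLP, 0.18 for ARL2BP, -0.03 for CIAPIN1 and -0.21 for COQ9. Of the 18 neighbours at the 3 loci, the called genes that are no chemokines, SCARB2 and MMP28, had smaller changes than the chemokines at their locus. So did CCL3 and CCL15-CCL14, whereas CCL22 and CCL17 had larger changes than CX3CL1. For CCL22 this rested on few counts, with a log2 fold change of -3.47 and a standard error of 0.95. With a prior count of 2 the order turned, at -2.01 for CCL22 and -2.57 for CX3CL1, and filterByExpr removed CCL22.

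**Figure D4:**
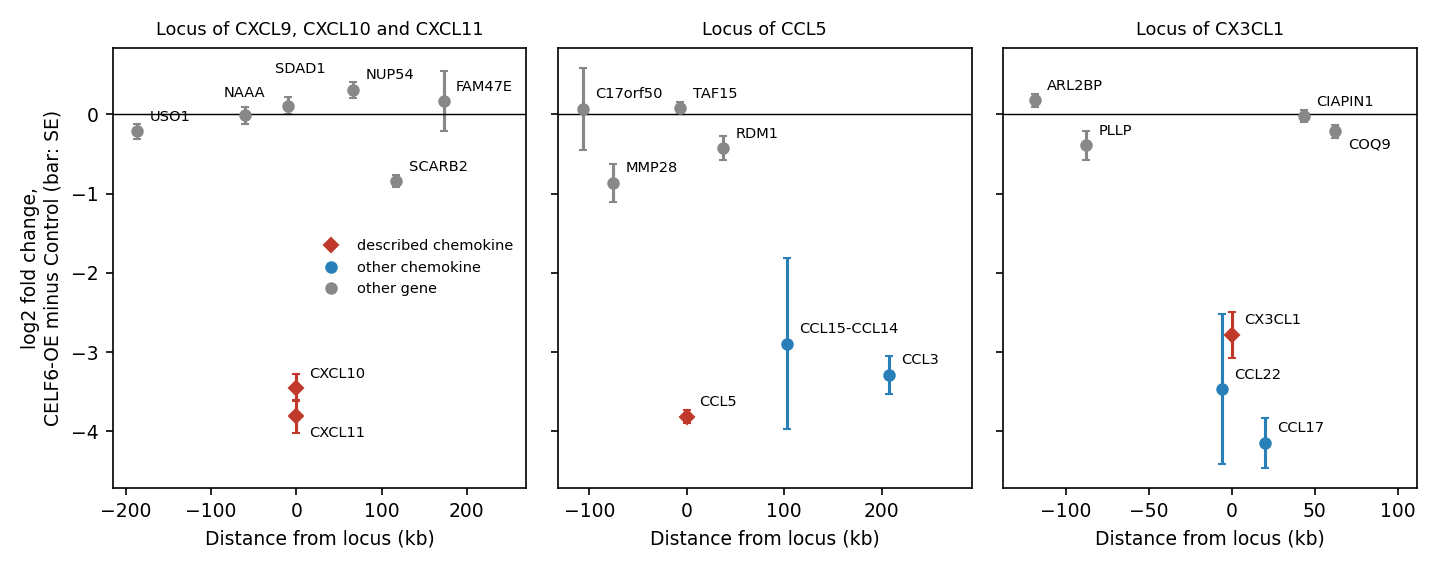
Log2 fold change with its standard error against distance from the locus in kb, for the 3 expressed genes on each side of the CXCR3 ligand genes, CCL5 and CX3CL1. The bars are approximate and were worked back from the test over all genes, which does not use the spread of each single gene. Red diamonds are the chemokines described here, blue circles other chemokines and grey circles other genes, which lie between -0.86 and 0.31.

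Few reads of the receptors analysed here were found in A549 cells. CXCR3 had 3, 0 and 0 counts in Control and 0 in each CELF6-OE library, CX3CR1 had 2, 5 and 0 and then 0, 2 and 1, and CCR3 had 0, 2 and 3 and then 0 in each. CCR1, which binds CCL5, had 22, 20 and 16 counts in Control against 6, 0 and 2 in CELF6-OE and was called, with a log2 fold change of -2.73 (edgeR, Benjamini-Hochberg adjusted p = 0.00825). It was -4.04 without CELF6-OE replicate 1 and -2.14 with a prior count of 2. ACKR1, an atypical receptor that binds CCL5 and other chemokines without signalling, had 41, 25 and 30 counts in Control against 0, 1 and 2 in CELF6-OE, for a log2 fold change of -4.77 that was -5.64 without CELF6-OE replicate 3 and -3.46 with a prior count of 2. ACKR3, a scavenging receptor of CXCL11, was not called at -0.57, and ACKR2 had at most 1 count per library.

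DPP4, a membrane protease that trims the first residues of the CXCR3 ligands and CCL5, was down-regulated, with 85, 87 and 76 counts in Control against 25, 24 and 25 in CELF6-OE and a log2 fold change of -1.67. The CX3CL1-cleaving proteases ADAM10 and ADAM17 had log2 fold changes of -0.29 and 0.03. SDC1 and SDC4, heparan sulfate proteoglycans that hold chemokines at the cell surface, had -0.16 and -0.37. None of these 4 was called. In all, 3 of 12 listed genes with a row were down-regulated and 0 up-regulated, beside 4.06% and 1.08% of all genes.

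Among the cytokines that induce the 5 chemokines and their receptors, 6 of 16 genes with a row were down-regulated and 0 up-regulated. Of all genes tested, 4.06% were down-regulated and 1.08% up-regulated. IFNB1 (interferon beta) had 206, 231 and 180 counts in Control against 11, 36 and 22 in CELF6-OE, for a log2 fold change of -3.09. The interferon lambda genes IFNL1, IFNL2 and IFNL3 had -3.18, -3.13 and -3.15, where IFNL2 and IFNL3 are near-identical copies, so their levels are uncertain in the same way. These differences lay between those of CX3CL1 and CXCL10. The receptors TNFRSF1B and IFNGR1 were called at -1.94 and -0.60. IFNGR1 sat at the fold threshold, and its call was lost with library-size scaling (-0.55), with upper quartile scaling (-0.57), without CELF6-OE replicate 2 (-0.54) and without Control replicates 1 or 2 (-0.51 and -0.58). TNFRSF1A, IFNGR2, IL10RB and IFNAR2 were not called at -0.01, -0.30, -0.41 and -0.28.

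Of 20 signalling genes and transcription factors of the induction, 6 were down-regulated and 0 up-regulated, beside 4.06% and 1.08% of all genes. The RNA sensors among the 6 were IFIH1, DDX58 and TLR3, at log2 fold changes of -1.27, -1.09 and -1.64. The transcription factors among them were IRF1, IRF7 and STAT2, at -1.09, -0.89 and -1.02. The level of IRF1 went from 28.6 ± 0.6 to 13.8 ± 1.65 FPKM (SD, n = 3 each). These changes were all smaller than that of any of the 4 chemokines. IRF3, RELA, RELB and NFKB2 were not called, at -0.16, -0.14, -0.21 and -0.48.

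Of 7 genes whose proteins act on the decay or stability of AU-rich mRNAs such as those of chemokines, ZFP36 (tristetraprolin) was called, with a log2 fold change of -0.68. It was the only one of the 7 down-regulated, and 0 were up-regulated, beside 4.06% and 1.08% of all genes. Its call was lost at a fold change of at least 2. HNRNPD, KHSRP, ZFP36L1 and ZC3H12A were not called, at 0.15, 0.23, -0.00 and -0.39. The counts measure the amount of mRNA, and its synthesis and decay cannot be told apart in them.

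To find the genes whose profile over the 6 libraries was most like that of the chemokines, log2 CPM profiles centred on their own mean were compared with the mean profile of CCL5, CXCL10 and CXCL11. Over 15843 genes the smallest root mean square difference was that of IDO1, the tryptophan-degrading enzyme, at 0.239, with 330, 372 and 359 counts in Control against 26, 30 and 47 in CELF6-OE. IL18BP, the soluble inhibitor of interleukin 18, followed at 0.263, with 817, 858 and 883 counts against 70, 48 and 114. ACKR1, CCL17 and APOL3 (an apolipoprotein L) came next at 0.270, 0.276 and 0.299. CX3CL1 itself was farther from this profile, at 0.538, than each of these 5 genes. The profiles used a prior count of 2, which draws genes with few counts, such as ACKR1 and CX3CL1, towards smaller differences. With 6 libraries in 2 groups, such a profile is set mainly by the group difference.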

How the data were processed

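RNA-seq of 3 CELF6-OE and 3 Control libraries was used. The authors trimmed the reads, aligned them to GRCh38 with TopHat2, kept reads that mapped to a single place and deposited raw read counts per gene and FPKM values. The counting tool, strand setting and annotation release are not given in the sources used here. Counts without normalization were scaled by TMM and tested with edgeR 4.0.16 (R 4.3.3; glmQLFit, glmQLFTest) over all 29889 genes with at least 1 count. A called gene had p under 0.01 and changed at least 1.5-fold. Adjusted p values (Benjamini-Hochberg) come from the 15847 genes kept by filterByExpr, because the prior degrees of freedom over all genes were infinite and the spread of single genes did not enter that p. The prior count of log2 fold changes was 0.125. Standard errors were not read from the fit. Each is the size of the log2 fold change before the prior count, divided by the square root of the F statistic, and is approximate. FPKM served for levels between genes and for exact permutation tests (scipy 1.17.1). Within-library ratios used counts plus 0.5. Limits and counting coefficients of variation cover counting error only.

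Of the gene identifiers, 97.1% were found in GENCODE v44. Promoters were those of RefSeq. The chemokines and gene lists were chosen with earlier results of these data known. Named from each list were the called genes with the smallest p (at most 8), the 4 uncalled genes with the highest FPKM, and the receptors of the 5 chemokines; added were the 3 nearest genes with at least 10 counts in any library on each side of a locus and the 5 genes of most similar profile (log2 CPM with a prior count of 2). A few genes looked up are not reported here. In simulated counts, 198 of 200 changed genes were recovered among 28279 tested. There 71 unchanged genes were called, 4 of them at an adjusted p under 0.05. Only genes with a mean of at least 10 counts were changed. The simulated counts held no extra spread of single genes, as the call rule assumes, so they cannot show how the rule fares with such spread. Whether the measured counts would give similar numbers was not tested. Chi-square values of 7.67 to 29.3 per degree of freedom between libraries of a group showed no duplicate. The methods call the replicates biological and say no more of the cultures, so adjusted and permutation p-values measure the spread between these libraries. The p of the call rule does not hold the spread of the single gene, as said above. Alternatives were other scalings, filters, tests (DESeq2 1.42.0 and limma 3.58.1 among them), thresholds, a replicate block and each library left out.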

Additional observations from a re-analysis of the deposited data

How the results depend on the processing

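The 4 down-regulated chemokines kept their direction and their call in each of 18 alternatives, with log2 fold changes of -4.06 to -3.19 for CXCL10, -4.00 to -3.67 for CXCL11, -4.29 to -3.53 for CCL5 and -3.43 to -2.52 for CX3CL1, the outer values mostly from leaving out 1 CELF6-OE library. CXCL9, with at most 3 counts per library, was called in 0 of its 17 alternatives, and no fold is given for it. With TMM replaced by other scalings the median of all genes moved by at most 0.045. Over all genes, 1212 were down-regulated and 324 up-regulated; a fold change of at least 2 gave 659 and 119, DESeq2 gave 169 up-regulated, and leaving out single libraries gave 921 to 1256 down-regulated and 209 (without CELF6-OE replicate 2) to 448 (without Control replicate 1) up-regulated. The filter filterByExpr left 6 of the other chemokine ligands down-regulated in place of 10, since ligands with few counts were removed. At a fold change of at least 2 the calls of CXCL16, CCL26, IFNGR1, IRF7, ZFP36, ITGAM, SCARB2 and MMP28 were lost, and that of CCL26 also with DESeq2.

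The ratio of CXCL10 to CXCL11 turned to -0.082 without CELF6-OE replicate 3, with a range of -0.082 to 0.42 over the left-out libraries. That of CXCL11 to CCL5 turned to -0.14 without CELF6-OE replicate 1 and to -0.06 without Control replicate 3, and its highest value was 0.36 without CELF6-OE replicate 3. The cause was not tested, and neither ratio differed beyond its spread in the first place.

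Same-numbered libraries did not deviate together, with correlations of -0.011, -0.021 and -0.072 over 15847 genes, so the numbers were not taken as pairs. With the replicate number as a block the log2 fold changes were -3.48 for CXCL10, -3.80 for CXCL11, -3.91 for CCL5 and -2.81 for CX3CL1, each still called, and 1180 genes were down-regulated and 312 up-regulated in all. That CELF6-OE replicate 3 is given beside the main values was chosen after seeing the data. With 3 libraries a group, an exact permutation test cannot go below p = 0.1.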
